A study of Mus musculus with 9 samples.

Results

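The 10 genes Atf4, Atf3, Ddit3, Trib3, Chac1, Sesn2, Asns, Psat1, Phgdh and Cth of the integrated stress response were followed in mouse embryonic stem cells that were left untreated or transfected with siRNA. They were chosen by symbol, as the rows of the deposited count table with these names. All 10 were found among the 16636 genes of the table, and all 10 passed the filter on low counts that kept 14246 genes for testing. The cells were E14, a wildtype mouse embryonic stem cell line, grown on fibronectin in the naive state. Their medium held LIF, the MEK inhibitor PD0325901 and the GSK3 inhibitor CHIR99021 (2i/LIF) in every group. There were 3 groups of 3 samples: untreated cells, cells given siRNA against luciferase as a control (siLuc), and cells given siRNA against Stag3, a cohesin subunit gene (siStag3). Both siRNA treatments lasted 48 h and used RNAiMax lipid with 50 pmol siRNA per transfection, with a second transfection on the next day. The untreated cells are labelled as having no treatment, so siRNA and transfection reagent cannot be told apart in a comparison with them. All groups came from 1 cell line, and the siRNA sequences are not given in the labels.

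The integrated stress response joins several kinases to 1 event, the phosphorylation of the translation factor eIF2. GCN2 senses uncharged tRNA, PERK senses unfolded protein in the endoplasmic reticulum, PKR senses double-stranded RNA, and HRI senses haem shortage and mitochondrial stress. Phosphorylated eIF2 slows most translation but lets ribosomes reach the coding sequence of Atf4, so that ATF4 protein can increase with little change in its mRNA. ATF4 then binds C/EBP-ATF response elements with C/EBP partners and raises genes for amino acid synthesis, amino acid transport and tRNA charging, together with the stress factors ATF3 and CHOP (Ddit3). RNA counts measure the transcripts of this program and neither eIF2 phosphorylation nor ATF4 protein.

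The letters searched for the C/EBP-ATF response element were TGATGNAA, on both strands. The windows searched ran from 250 bases before to 50 bases after each start site, in RefSeq on GRCm38.p6. This is not the GRCm39 build named in the submitters' processing notes, and no coordinate was converted. Windows were found for 9 of the 10 genes (Cth had none), and 4 of these 9 held a match, against 4.51% of the 27025 genes with a window and 3.97% of all 32851 windows. The 4 stretches are shown because ATF4 is known to bind such letters with its partners. Each has 30 bases, is written on the strand where the element reads as spelled, and has the match in capitals.

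Atf3, chr1:191183425-191183454, plus strand (opposite to the gene), match at -110 to -103 from the start site: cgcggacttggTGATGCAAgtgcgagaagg

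Chac1, chr2:119351038-119351067, minus strand (opposite to the gene), match at -193 to -186: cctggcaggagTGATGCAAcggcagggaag

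Trib3, chr2:152344028-152344057, plus strand (opposite to the gene), match at 15 to 22 after the start site: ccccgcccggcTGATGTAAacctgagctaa

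Asns, chr6:7693214-7693243, minus strand (the strand of the gene), match at -23 to -16: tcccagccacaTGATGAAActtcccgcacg

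Atf3 and Chac1 carried the same 8 letters, TGATGCAA. Trib3 had TGATGTAA and Asns had TGATGAAA. The windows of Atf4, Ddit3, Sesn2, Psat1 and Phgdh held no match, which says only that these letters are not in those windows. A match is a description of the sequence and not evidence of binding.

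Libraries held 29332436 to 44527534 counts, so that 3 counts equalled 0.0674 to 0.102 CPM (the count relative to the library total). Stag3 itself stood at 13.5 to 15.6 CPM in the siStag3 libraries and at 22.5 to 28.6 CPM in the other 6, without overlap. The table's column names also give a set (1 or 3) and an experiment number. Each group had 2 libraries of Set 1 and 1 of Set 3, and what a set stands for is not given in the labels. The Set 3 libraries stood apart: 6076 genes, or 42.7% of those tested, differed between the sets. Set was therefore a term of the edgeR test used below. Naive markers summed to 4811 to 5262 CPM in every library. The 12 markers of other cell types (primitive endoderm, trophoblast, fibroblast, neural and two-cell-like) summed to 11.6 to 13.8 CPM in all libraries, with Zscan4c at 0 counts in at least 1 of them. Of these, 8 could be tested. Pax6 was higher in siLuc than in untreated (0.59 on the log2 scale, edgeR adjusted p = 0.0316), 1 of 8 beside 4.2% of all genes. Cdx2 was lower in siStag3 than in untreated (-1.11, adjusted p = 0.0379), 1 of 8 beside 2.53%. Cdx2 ran from only 0.421 to 2.02 CPM over the libraries. With no set term 0 of the 8 passed. In bulk RNA, fewer cells with a transcript and less of it per cell cannot be told apart. Mitochondrial genes took 3.48 to 5.33% of counts in untreated, 5.98 to 6.73% in siLuc and 4.10 to 6.78% in siStag3 libraries. The part of these markers and of mitochondrial RNA in the results was not tested.

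The enzyme genes were abundant and the stress factors other than Atf4 were low. Per kilobase of the longest transcript, Asns had a mean level of 312 CPM per kb, above 98.8% of the genes tested. Atf4 followed at 117, Psat1 at 85.9, Cth at 50.9, Sesn2 at 39.1 and Phgdh at 15 CPM per kb. Trib3 lay near the middle of all genes at 5.98 CPM per kb, and Ddit3 at 3.63, Chac1 at 1.35 and Atf3 at 0.372 were lower. The ranges over the 9 libraries did not overlap between neighbours in this order, except for Chac1 and Atf3.

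**Figure D1:**
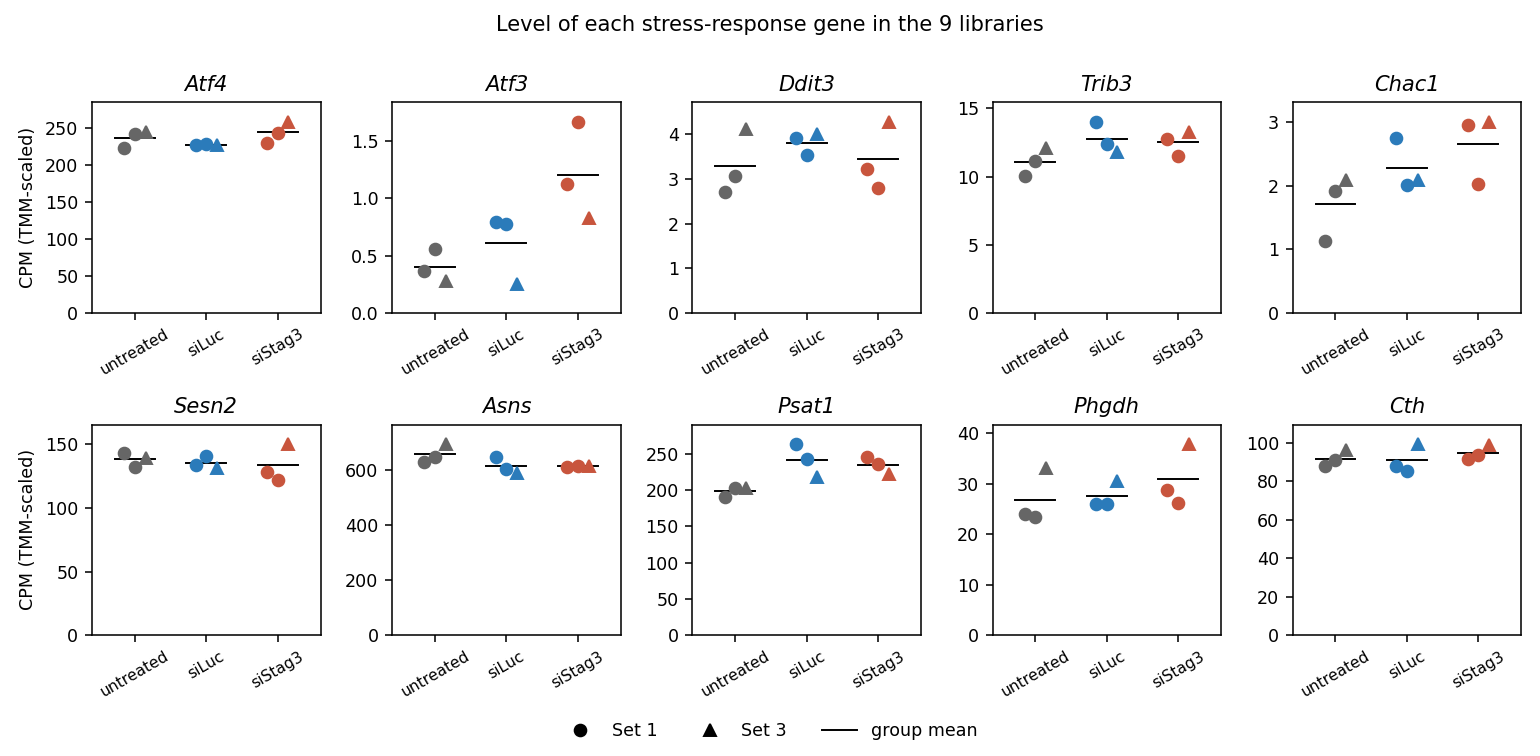
TMM-scaled CPM of each gene (linear axis from 0) in the 9 libraries, by group, with circles for Set 1, triangles for Set 3 and a bar for the mean of the group. Psat1 lies higher in both transfected groups than in untreated cells, Atf3 lies highest in siStag3, and the triangles lie above the circles for Phgdh.

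In siLuc against untreated cells, 1 of the 10 genes passed the test, an adjusted p under 0.05. Psat1 was higher in siLuc (mean 242 against 198 CPM). Across all genes 4.2% passed (598 genes), with 1.65% of the genes tested higher, so 1 of 10 is close to the background. At an unadjusted p under 0.05 the count was also 1 of 10, beside 27.8% of all genes. In siStag3 against untreated cells the count was again 1 of 10: Atf3, which was 2.96-fold higher (95% interval 1.91 to 4.58). There 2.53% of all genes passed, 1.07% with higher levels, and 4 of the 10 had an unadjusted p under 0.05 beside 17% of all genes. In siStag3 against siLuc, the comparison in which both groups were transfected, 0 of 10 passed adjustment by edgeR and 4 genes of the whole table did (0.0281%). At an unadjusted p under 0.05, 2 of 10 stood in that comparison, Atf3 and Phgdh, beside 7.88% of all genes. DESeq2 gave 0 of 10 as well. The comparisons with untreated cells share those 3 libraries, so their counts are not independent. The median log2 difference of the 10 genes was 0.13 for siLuc against untreated, 0.12 for siStag3 against untreated and 0.03 for siStag3 against siLuc. Over all genes tested the medians were -0.0024, -0.0056 and -0.0048. In the same order, 6, 8 and 5 of the 10 lay above 0, beside 7059, 6926 and 6887 of the 14246 genes. Atf4, Ddit3, Trib3, Chac1 and Psat1 all had their lowest value in untreated Set 1 experiment 1, so these medians lean on that library.

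**Figure D2:**
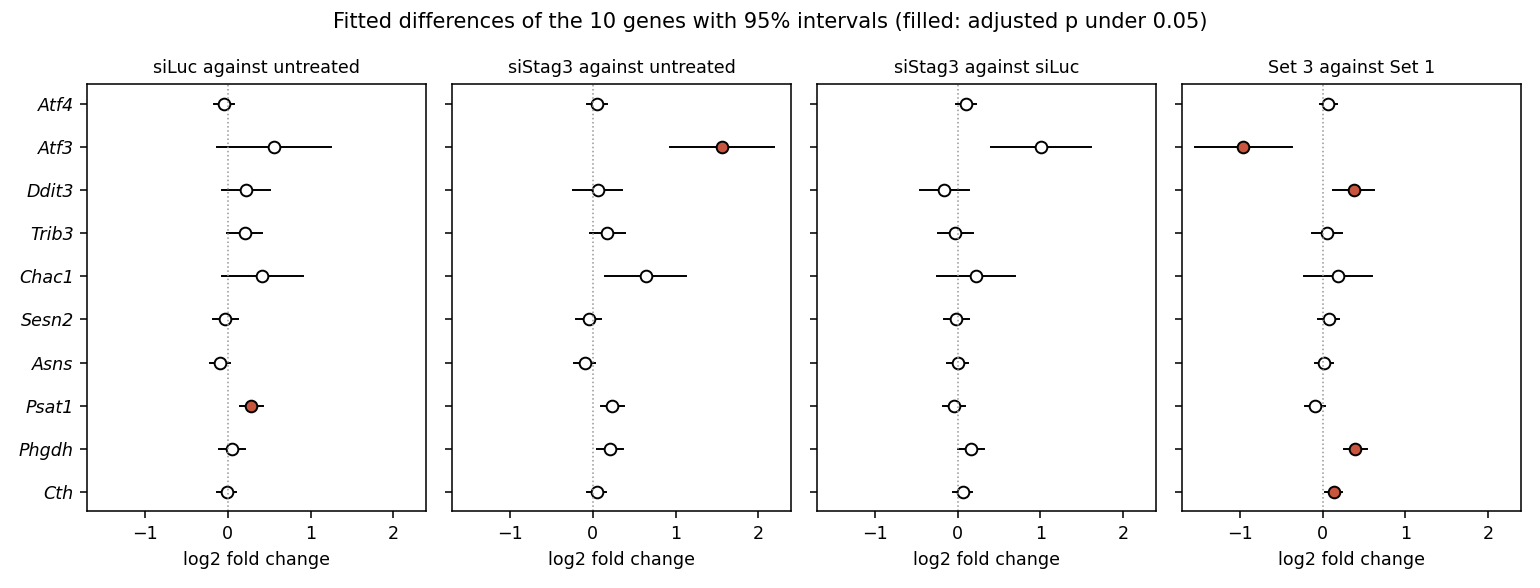
Log2 fold change of each gene (horizontal axis) in the 3 comparisons of groups and between sets, with 95% intervals from edgeR with the set as a term and filled points for an adjusted p under 0.05. The interval of Atf3 in siStag3 against untreated runs from 0.94 to 2.19, and that of Psat1 in siLuc against untreated from 0.14 to 0.42.

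Atf4 encodes the transcription factor at the centre of the response. It stood at 222, 241 and 244 CPM in untreated, at 227 in each of the siLuc libraries and at 229, 243 and 258 CPM in siStag3. The siStag3 libraries all lay above those of siLuc, as 3.18% of all genes did, but by a difference of only 0.10 on the log2 scale (95% interval -0.02 to 0.22, edgeR adjusted p = 0.694). Against untreated cells the differences were -0.05 for siLuc (interval -0.17 to 0.07) and 0.05 for siStag3 (-0.07 to 0.17). As folds, the intervals of Atf4 in the 3 comparisons lay between 0.887 and 1.16.

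Atf3 encodes a stress-induced factor of the ATF/CREB family. Its counts were 13, 19 and 13 in untreated, 25, 28 and 8 in siLuc and 40, 53 and 25 in siStag3 libraries. As CPM these were 0.365, 0.561 and 0.282 in untreated, 0.796, 0.773 and 0.252 in siLuc, and 1.12, 1.67 and 0.825 in siStag3. The last value of each group is the Set 3 library and is the lowest of its group. Every siStag3 library lay above every library of the other groups, as those of 4.63% of all genes did against untreated and 3.18% against siLuc. Against untreated, Atf3 rose by 1.56 on the log2 scale (SE 0.293, edgeR adjusted p = 0.0123). With no set term the difference was 1.60 with an adjusted p of 0.539. Against siLuc the difference was 1.01 (SE 0.280, interval 0.41 to 1.61, adjusted p = 0.394), and siLuc lay 0.56 above untreated (interval -0.14 to 1.25, adjusted p = 0.272). The call against untreated was lost without untreated Set 1 experiment 1, untreated Set 3 experiment 5 or siStag3 Set 1 experiment 3, and adjusted p-values ran from 0.00911 to 0.0669 when each of the 9 libraries was left out in turn. DESeq2 gave Atf3 no adjusted p in either comparison with untreated cells, and 0.573 in siStag3 against siLuc.

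Ddit3 encodes CHOP, the C/EBP-family factor linked to stress-induced cell death. It had 2.72, 3.07 and 4.12 CPM in untreated, 3.92, 3.53 and 4.0 in siLuc and 3.23, 2.80 and 4.29 in siStag3. The groups overlapped in each comparison. The siStag3 against untreated difference was 0.06 (interval -0.24 to 0.35) and that of siLuc against untreated was 0.22 (-0.07 to 0.51). Ddit3 overlaps the methionyl-tRNA synthetase gene Mars1 on the other strand. The strand setting of the counting is not given in the sources used here, and Mars1 stood at 184 to 221 CPM.

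Trib3 encodes a pseudokinase that binds ATF4 and CHOP and restrains them. It was at 10.0, 11.1 and 12.1 CPM in untreated, 14.0, 12.4 and 11.8 in siLuc, and 12.8, 11.5 and 13.3 in siStag3. The log2 differences from untreated were 0.20 for siLuc (SE 0.0994, adjusted p = 0.197) and 0.18 for siStag3 (SE 0.0995, adjusted p = 0.382). Chac1 encodes an enzyme that degrades glutathione. It had 1.12, 1.92 and 2.08 CPM in untreated, 2.74, 2.01 and 2.08 in siLuc and 2.95, 2.02 and 3.00 in siStag3. Its siStag3 against untreated difference was 0.64 (interval 0.15 to 1.12), which did not pass adjustment (edgeR adjusted p = 0.164). The siStag3 library of Set 1 experiment 3 lay within the untreated range.

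Sesn2 encodes a leucine-binding inhibitor of mTORC1. It was at 143, 132 and 139 CPM in untreated, 134, 141 and 131 in siLuc and 129, 122 and 151 in siStag3. In Set 1 both siStag3 libraries lay below both siLuc libraries. In Set 3 the 1 siStag3 library (experiment 5) lay above the 1 siLuc library (experiment 1), so experiment and treatment cannot be told apart there. The share of all genes with this order was not counted. The difference between sets in this contrast had the smallest p of the 10 genes (unadjusted p = 0.00988), but after adjustment by edgeR over all genes it was 0.114. No gene of the 10 passed this test of group by set in any of the 3 contrasts, where 2, 1 and 160 of 14246 genes did.

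Of the 4 enzyme genes, 1 passed in siLuc against untreated, beside 4.2% of all genes. In siStag3 against untreated and against siLuc 0 passed, beside 2.53% and 0.0281%. Asns encodes asparagine synthetase and was at 630, 647 and 696 CPM in untreated, 647, 605 and 590 in siLuc and 609, 616 and 616 in siStag3. All siStag3 libraries lay below all untreated ones, as 5.38% of all genes did. The fitted difference was -0.10 (interval -0.22 to 0.02, edgeR adjusted p = 0.396), and the siLuc against untreated difference was the same size at -0.10.

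Psat1 encodes phosphoserine aminotransferase, the second step of serine synthesis from glycolysis. It stood at 191, 202 and 202 CPM in untreated, 264, 243 and 218 in siLuc and 245, 236 and 222 in siStag3. All 6 transfected libraries lay above the 3 untreated ones. In the comparison with siLuc 9.59% of all genes lay higher without overlap, and in that with siStag3 4.63% did. Psat1 rose by 0.28 in siLuc (SE 0.0640, edgeR adjusted p = 0.0307), a 1.22-fold difference. Within sets, the difference of mean log2 CPM was 0.37 in Set 1 and 0.11 in Set 3, which has 1 library per group. In siStag3 the fitted difference from untreated was 0.24 (SE 0.0640, adjusted p = 0.0721), and between siStag3 and siLuc it was -0.04 (interval -0.18 to 0.09). The siStag3 against untreated difference passed with DESeq2 (adjusted p = 0.0307) and in the Set 1 libraries alone (edgeR adjusted p = 0.0250). With no set term the adjusted p for siLuc was 0.580. With set and experiment as 4 levels it was 0.0646, and it passed in 4 of 9 fits with 1 library left out (0.00781 to 0.120). The call was lost without untreated Set 1 experiment 1, untreated Set 1 experiment 3, siLuc Set 1 experiment 1, siLuc Set 1 experiment 3 or siStag3 Set 1 experiment 1.

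Phgdh encodes the first enzyme of the same serine pathway. It had 23.9, 23.3 and 33.2 CPM in untreated, 25.9, 26.0 and 30.6 in siLuc, and 28.9, 26.2 and 38.0 in siStag3. The third library of each group, from Set 3, was the highest of its group. The siStag3 against untreated difference was 0.21 (interval 0.05 to 0.37, adjusted p = 0.155). Of the 31-base words of Phgdh transcripts, 55.8% also occur in transcripts of other genes, most of all Gm7901 (44.8%), so its counts are uncertain where reads were shared. Cth encodes cystathionine gamma-lyase, which makes cysteine. It was at 87.6, 90.9 and 96.3 CPM in untreated, 88.1, 85.1 and 99.4 in siLuc and 91.5, 93.6 and 98.6 in siStag3, and its largest difference between groups was 0.06.

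Between Set 3 and Set 1, 4 of the 10 genes passed the test, beside 42.7% of all genes, so the share of the 10 was close to the background. Over all genes 21.4% were higher in Set 3 and 21.2% lower. Phgdh was higher in Set 3 by 0.40 (SE 0.0625, edgeR adjusted p = 0.000282), Ddit3 by 0.38 (adjusted p = 0.0194) and Cth by 0.13 (adjusted p = 0.0337). These 3 were higher in every Set 3 library than in every Set 1 library, as 13.3% of all genes were. Atf3 was lower in Set 3, by 0.96 on the log2 scale (fold 0.515, adjusted p = 0.0121). Phgdh passed in all 9 fits with 1 library left out, Atf3 in 8, Ddit3 in 7 and Cth in 4. The call of Atf3 was lost without siLuc Set 3 experiment 1 and that of Ddit3 without untreated or siStag3 Set 3 experiment 5. That of Cth was lost without untreated Set 3 experiment 5, siStag3 Set 1 experiment 1 or any 1 siLuc library. In Set 3 the siLuc library carries another experiment number than the other 2, and 1 library per group stands there, so experiment and treatment cannot be told apart within that set.

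Differences between groups followed the GC content of transcripts across the table. Over 14226 genes, Spearman's correlation of GC content with the log2 difference was -0.484 for siLuc against untreated, -0.311 for siStag3 against untreated, 0.373 for siStag3 against siLuc and 0.471 for Set 3 against Set 1. Genes are not independent replicates, so no p is given. Within the 10 genes GC content ran from 44.2% in Cth to 58.7% in Sesn2. When each library was corrected for the median deviation of genes in 20 bins of GC content, 3 of 10 genes passed in siLuc against untreated, beside 7.13% of all genes. These were Psat1 (0.26, adjusted p = 0.00466), Trib3 (0.36, adjusted p = 0.0201) and Sesn2 (0.14, adjusted p = 0.0459), the last of which had been at -0.03 before correction. In siStag3 against untreated 3 of 10 passed, beside 6.56% of all genes: Atf3 (1.60, adjusted p = 0.00188), Phgdh (0.28, adjusted p = 0.00700) and Psat1 (0.23, adjusted p = 0.0101). In siStag3 against siLuc 0 of 10 passed after the correction, beside 0.373% of all genes, and between sets 5 of 10 did, beside 42.5%. Between sets these were Atf3 (-1.02), Ddit3 (0.48), Phgdh (0.21, from 0.40 before correction), Cth (0.28, from 0.13) and Sesn2. Sesn2 went from 0.07 to -0.16 (edgeR adjusted p = 0.00109). With no set term, 0 of 10 passed in each of the 3 comparisons, beside 0.00702%, 0.014% and 0% of all genes.

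**Figure D3:**
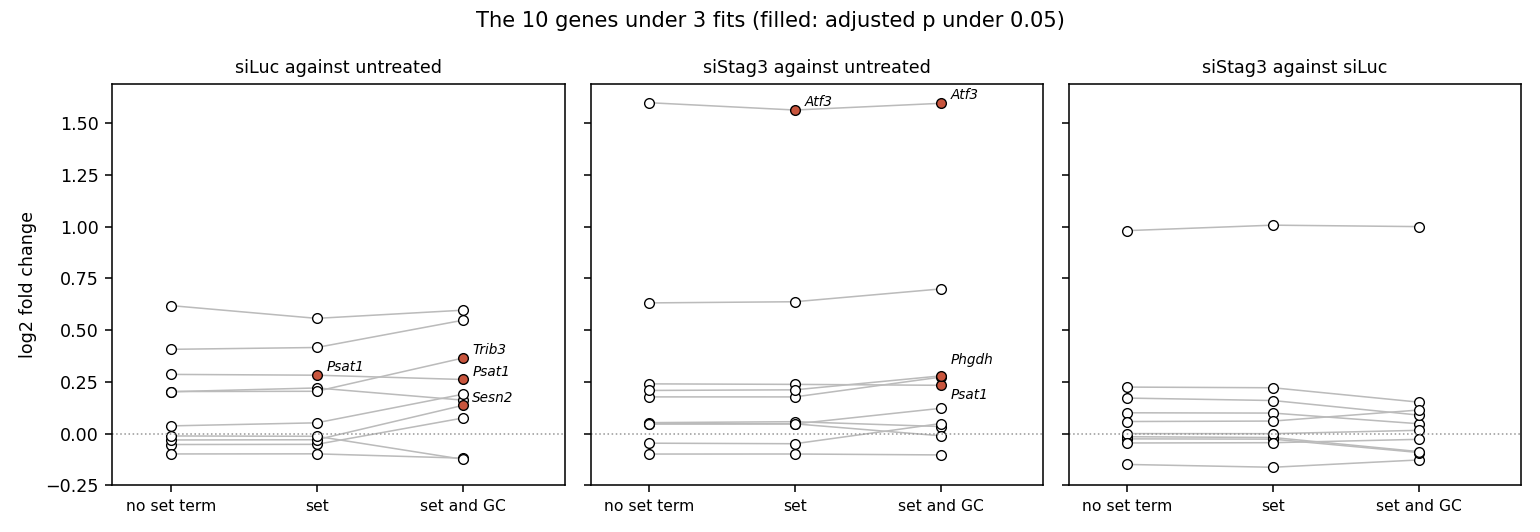
Log2 fold change of the 10 genes (vertical axis) from 3 fits, with no set term, with the set, and with the set and a GC correction, for each comparison of groups. Filled points have an adjusted p under 0.05: none with no set term, 1 each for siLuc and siStag3 against untreated with the set, 3 each with the GC correction, and none in siStag3 against siLuc.

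The rest of the pathway was followed through 6 lists of 89 genes, of which 87 were in the table and tested. Of these, 1 rose and 1 fell in siLuc against untreated, and 2 rose and 1 fell in siStag3 against untreated. As shares these were 2.30% and 3.45%, beside 4.2% and 2.53% of all genes. In siStag3 against siLuc 0 passed, before and after the GC correction, beside 0.0281% and 0.373% of all genes. At an unadjusted p under 0.05 in edgeR, 5 of the 87 stood in that comparison, beside 7.88% of all genes. With no set term 0 of 87 passed in any of the 3. Their median log2 differences were 0.0050, 0.054 and 0.028. With 1 library left out, 0 to 2 of the 87 passed in siLuc against untreated and 0 to 4 in siStag3 against untreated, except without siStag3 Set 3 experiment 5. Without that library 11 and 9 of the 87 passed, beside 17% and 11% of all genes.

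None of the 4 eIF2 kinase genes passed between groups. Eif2ak1 (HRI) ran from 58.0 to 66.7 CPM over the 9 libraries, Eif2ak3 (PERK) from 12 to 14.3 and Eif2ak4 (GCN2) from 39.2 to 45.1. Eif2ak2 (PKR), an interferon-inducible kinase, had 46.3, 50.4 and 34.9 CPM in untreated, 52.0, 51.1 and 42.6 in siLuc and 54.0, 53.2 and 33.7 in siStag3. Its siLuc against untreated difference was 0.16 (interval -0.01 to 0.33). Its Set 3 against Set 1 log2 difference was -0.47, in a comparison where 21.2% of all genes passed as lower in Set 3.

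Impact encodes an inhibitor of GCN2 activation and was the 1 gene to pass in a list of 19. That list held the eIF2 kinases and their regulators, eIF2 and eIF2B subunits, Eif2a and phosphatase subunits. The share was 5.26% in each comparison with untreated cells, beside 4.2% of all genes for siLuc and 2.53% for siStag3. Impact was at 222, 242 and 197 CPM in untreated, 277, 280 and 267 in siLuc and 295, 304 and 219 in siStag3. It rose by 0.32 in siLuc (SE 0.0728, edgeR adjusted p = 0.0293) and by 0.30 in siStag3 (SE 0.0729, adjusted p = 0.0452). The siLuc libraries lay above all untreated ones, as those of 9.59% of all genes did. The Set 3 library of siStag3 lay within the untreated range. After the GC correction the differences were 0.16 and 0.21, with adjusted p-values of 0.0243 and 0.00269.

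Of the 10 amino acid transporter genes, 1 fell in siLuc against untreated (10%, beside 4.2% of all genes), and 1 rose and 1 fell in siStag3 against untreated (20%, beside 2.53%). Slc43a1, a carrier of large neutral amino acids, had 9.68, 9.19 and 7.02 CPM in untreated, 6.56, 6.15 and 6.21 in siLuc and 6.24, 6.81 and 4.82 in siStag3. Every transfected library lay below every untreated one, as those of 10.3% of all genes did in siLuc and 5.38% in siStag3. It fell by 0.44 in siLuc (SE 0.110, edgeR adjusted p = 0.0421) and by 0.53 in siStag3 (SE 0.111, adjusted p = 0.0206). Slc7a3, a carrier of cationic amino acids, had 132, 131 and 148 CPM in untreated, 143, 146 and 155 in siLuc and 150, 154 and 174 in siStag3. It rose in siStag3 against untreated by 0.22 (SE 0.0515, adjusted p = 0.0392), and its siLuc against untreated difference was 0.11.

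In the other lists no gene passed between groups with the set term alone. These held 14 further ATF4 partners and stress targets such as Cebpb and Ddit4, 10 serine, glycine and one-carbon enzymes, 20 cytosolic tRNA synthetases, and 14 endoplasmic reticulum targets of ATF6 and XBP1. In siStag3 against untreated their median differences were 0.14, 0.056, 0.063 and 0.047, and in siStag3 against siLuc 0.012, 0.033, 0.031 and 0.024. Between sets, 23 of the 87 genes were higher in Set 3 and 18 lower, which is 47.1% beside 42.7% of all genes.

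**Figure D4:**
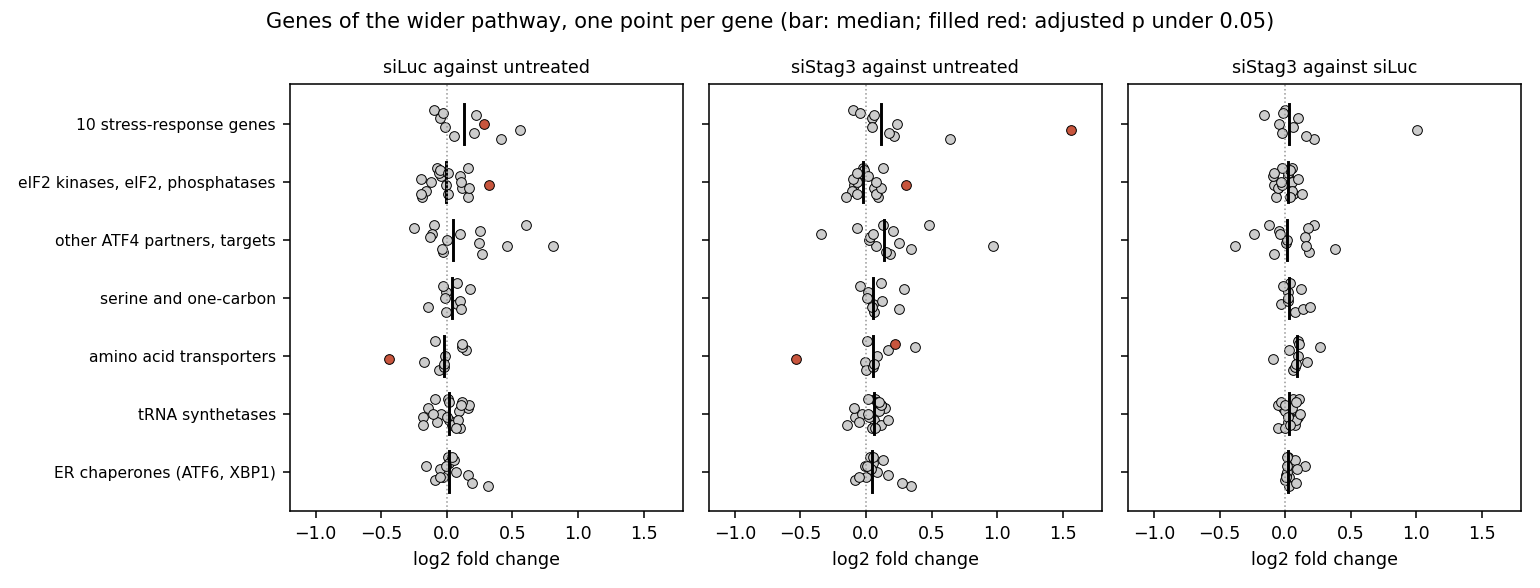
Log2 fold change of each gene in the 10 genes and the wider pathway lists (points, red where the adjusted p was under 0.05, with bars for the medians) in the 3 comparisons of groups. Most points lie close to 0, and the passing genes outside the 10 are Impact, Slc43a1 and Slc7a3.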

How the data were processed

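The authors deposited raw counts per gene for 9 mRNA libraries (KAPA mRNA HyperPrep), used here as whole-number counts. The submitters' processing notes name FastQC, Salmon, DESeq2 and GRCm39, without versions or roles. If Salmon made the table, its counts are rounded estimates. The table's smallest sum over libraries is 9. Columns were matched to groups by name.

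Genes were tested with edgeR 4.0.16 in R 4.3.3 (TMM, filterByExpr, robust quasi-likelihood F test) in 1 fit of all 9 libraries with group and set. P-values are two-sided, adjusted by Benjamini-Hochberg over 14246 genes, with a threshold of 0.05. Intervals are 95%. The genes, lists and the set term were chosen with earlier results of these data known. The 10 genes and 4 eIF2 kinases were always named, with up to 4 passing genes of each other list (smallest p first, mean log2 CPM of 1 or more). The floor of 3 counts covers counting error only. The samples are described as biological replicates, and p-values measure only the spread between them. GC content and transcript length came from GENCODE M21 (GRCm38). In data simulated for siStag3 against siLuc (14118 genes), the test recovered 98% of genes changed by 1 on the log2 scale. It recovered 78% of those changed by 0.5. There 200 genes were changed, and 11 of the 187 calls were false. The changed genes were drawn only from genes with higher mean levels than Atf3, and no GC trend was simulated. The recovery therefore does not apply to Atf3, nor to data with fewer changed genes or a GC trend. DESeq2 1.42.0 was an alternative.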

Additional observations from a re-analysis of the deposited data

How the results depend on the processing

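No paired analysis was possible by replicate number, because the replicate numbers in the sample titles could not be matched to columns. The set and experiment numbers in the column names were used instead as 4 levels, with the values given below. By these numbers every siStag3 library had an untreated partner, while siLuc libraries had partners only in Set 1. With no set term 0 of the 10 genes, 0 of the 87 others and 1, 2 and 0 of all genes passed in siLuc against untreated, siStag3 against untreated and siStag3 against siLuc. With the GC correction the 10 genes gave 3, 3 and 0, the others 5, 8 and 0, and all genes 1014, 933 and 53. DESeq2 called 5 of the others and 1328 of all genes in siLuc against untreated, and 22 of all genes in siStag3 against siLuc. A fit of only the 6 libraries compared called 7 of the others and 1801 of all genes in siLuc against untreated, and 1 of all genes in siStag3 against siLuc. Set 1 alone called 298 of all genes in siLuc against untreated, and in siStag3 against untreated 2 of the 10 (Atf3 and Psat1), 6 of the others and 949 of all genes. Set and experiment as 4 levels were a choice made after seeing the data. That fit called 0 of the 10, 0 of the others and 86 of all genes in siLuc against untreated. In siStag3 against untreated it called 352 of all genes, with Atf3 among them (1.57, edgeR adjusted p = 0.0107). In siStag3 against siLuc it called 2 of all genes. The siLuc library of Set 3 stood alone in its level there, so it added nothing to these comparisons. A mean of at least 50 counts left Atf3 untested, so 0 of the 10 passed in siStag3 against untreated. Scaling by total count called 1 of the others there. It also moved the split of all genes from 235 higher and 363 lower to 161 and 600 in siLuc against untreated, from 153 and 208 to 100 and 256 in siStag3 against untreated, and from 3053 and 3023 to 3834 and 2378 between sets.

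With each of the 9 libraries left out in turn, the 10 genes gave 0 to 1, 0 to 2 and 0 to 0 calls in the 3 comparisons of groups, and 2 to 4 between sets. The others gave 0 to 11, 0 to 9, 0 to 0 and 24 to 41. All genes gave 111 to 2458, 78 to 1591, 0 to 4 and 4162 to 6355. The highest counts of the others and of all genes in both comparisons with untreated cells came without siStag3 Set 3 experiment 5. A lone library of a group in a set was assumed to vary like the others.

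Under the GC correction the sign turned for Atf4 (0.075) and Sesn2 (0.14) in siLuc against untreated, for Sesn2 (0.048) and Cth (-0.011) in siStag3 against untreated, for Asns (0.016) in siStag3 against siLuc, and between sets for Atf4 (-0.088), Trib3 (-0.18), Chac1 (-0.011) and Sesn2 (-0.16). Set and experiment as 4 levels gave Sesn2 0.038 in siLuc against untreated. Asns in siStag3 against siLuc was 0.0035 with DESeq2 and with its size factors, and 0.0059 by total count. The cause was not tested. With 1 library left out, differences spanned 0 for Sesn2 (-0.074 to 0.041) and Cth (-0.042 to 0.014) in siLuc against untreated. They did for Ddit3 (-0.010 to 0.14) and Sesn2 (-0.14 to 0.011) in siStag3 against untreated. In siStag3 against siLuc they did for Trib3 (-0.13 to 0.065), Sesn2 (-0.11 to 0.040), Asns (-0.050 to 0.049) and Psat1 (-0.10 to 0.014), and between sets for Trib3 (-0.015 to 0.16), Sesn2 (-0.022 to 0.15) and Asns (-0.038 to 0.071).

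Depth limits Atf3, with 8 to 53 counts, and Chac1, with 40 to 105.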

Other observations

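With the GC correction, 5 of the 87 genes passed in siLuc against untreated, beside 7.13% of all genes. In siStag3 against untreated 8 of the 87 did, beside 6.56%. Among them were genes that had not passed with the set term alone. In siLuc against untreated these were Ddit4, an inhibitor of mTORC1 (log2 difference 0.41, edgeR adjusted p = 0.000961), the secreted glycoprotein gene Stc2 (0.60, adjusted p = 0.0370) and the synthetase gene Farsa (-0.20, adjusted p = 0.0190). In siStag3 against untreated they were Ddit4 (0.35, adjusted p = 0.00295), the mitochondrial folate enzyme gene Mthfd2 (0.30, adjusted p = 0.0128), Psph, the last step of serine synthesis (0.25, adjusted p = 0.0194), Atf5 (0.24, adjusted p = 0.0230) and the asparaginyl-tRNA synthetase gene Nars (0.16, adjusted p = 0.0407). These genes were named after their values were seen. Of the 87 genes, 0 passed in siStag3 against siLuc both with this correction and without it (edgeR adjusted p under 0.05).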
